A study of Mus musculus with 22 samples.

Results

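The 50 genes described here act in mitosis, the step of the cell cycle in which duplicated chromosomes are pulled apart and the cell divides. They form a named list put together by what their proteins do, with earlier results of these data known. For each gene the probe set (the set of array probes for a transcript) with the highest mean over all arrays was used, among those the platform annotation assigns to that gene alone. No probe set was assigned to Ccnb1, the main mitotic cyclin, alone, so 49 of the 50 genes were measured, among 18193 genes in all.

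RNA was taken 7 days after adenoviral infection from MEFs, which are mouse embryonic fibroblasts in primary culture, and was hybridised to Affymetrix whole-genome mouse arrays. The double arrays (n = 7) held cells in which viral Cre recombinase had both activated a mutant allele of an oncogene and deleted Wt1. The oncogene arrays (n = 5, replicates 1, 3, 4, 5 and 6) held cells with the activated allele alone. The Wt1-null arrays (n = 5) held cells labelled Wt1f/f, or simply null, that had lost this zinc finger transcription factor. The control arrays (n = 5) held cells labelled wild type that received a GFP adenovirus. Every group but the control received Cre, so a difference from control is also a difference between viruses. Whether replicates were separate embryos is not in the labels, so p-values measure only the spread between these arrays. Fewer dividing cells and less RNA per dividing cell cannot be told apart in such bulk samples.

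Mitotic genes are expressed in a wave late in the cell cycle. Cyclin B and Cdk1 drive entry into mitosis, the Aurora and Polo kinases build the spindle, the checkpoint holds the cell until every kinetochore is attached, and the anaphase-promoting complex with Cdc20 then releases the sister chromatids. The wave is switched on by B-Myb and Foxm1 with the MuvB complex and NF-Y, and in resting cells the DREAM complex shuts the same genes off. DREAM and MuvB bind a short promoter element called the CHR (cell cycle genes homology region), and NF-Y binds the CCAAT box. In fibroblast cultures these genes are widely used as markers of cycling cells.

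These 6 promoters are printed because they show these elements in members whose array values, or for Ccnb2 the difference from control, are given here. In the exact letters searched, the first 4 hold both, Kif15 holds the CHR core alone and Birc5 holds neither. They come from RefSeq on mouse assembly GRCm38.p6 and run 5′ to 3′ from 170 bases before to 30 bases after the annotated start. Capitals mark the CHR core TTTGAA and the CCAAT box, each on either strand, so that TTCAAA and ATTGG are the reverse forms.

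Cdk1 promoter, chr10:69352883-69353082, minus strand: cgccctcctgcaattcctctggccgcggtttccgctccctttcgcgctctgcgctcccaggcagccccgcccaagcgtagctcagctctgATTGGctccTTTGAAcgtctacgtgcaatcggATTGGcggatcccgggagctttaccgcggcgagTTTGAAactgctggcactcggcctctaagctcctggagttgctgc

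Ccnb2 promoter, chr9:70421525-70421724, minus strand: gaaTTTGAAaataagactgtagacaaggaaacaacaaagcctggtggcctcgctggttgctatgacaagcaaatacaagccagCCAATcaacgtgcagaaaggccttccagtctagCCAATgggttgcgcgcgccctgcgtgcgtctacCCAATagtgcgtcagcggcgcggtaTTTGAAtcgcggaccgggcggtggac

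Cdc20 promoter, chr4:118437314-118437513, minus strand: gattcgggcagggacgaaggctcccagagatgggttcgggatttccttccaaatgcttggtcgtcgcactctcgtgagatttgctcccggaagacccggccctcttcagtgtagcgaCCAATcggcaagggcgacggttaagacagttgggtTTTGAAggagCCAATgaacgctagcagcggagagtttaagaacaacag

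Top2a promoter, chr11:99024160-99024359, minus strand: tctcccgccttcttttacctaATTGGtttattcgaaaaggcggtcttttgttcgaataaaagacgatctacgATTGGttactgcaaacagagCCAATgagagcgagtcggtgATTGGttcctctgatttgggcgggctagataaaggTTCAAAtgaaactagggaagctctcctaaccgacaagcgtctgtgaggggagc

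Kif15 promoter, chr9:122950911-122951110, plus strand: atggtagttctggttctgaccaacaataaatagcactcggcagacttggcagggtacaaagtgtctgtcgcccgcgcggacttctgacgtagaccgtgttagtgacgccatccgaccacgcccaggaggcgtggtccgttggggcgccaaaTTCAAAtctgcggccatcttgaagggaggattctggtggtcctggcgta

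Birc5 promoter, chr11:117849067-117849266, plus strand: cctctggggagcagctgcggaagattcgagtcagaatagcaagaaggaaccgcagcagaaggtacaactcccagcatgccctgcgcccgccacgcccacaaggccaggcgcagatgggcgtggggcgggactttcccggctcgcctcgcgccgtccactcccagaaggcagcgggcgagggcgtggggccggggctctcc

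A RefSeq promoter was matched to 41 of the 49 measured members. Within 250 bases before to 50 bases after the start, TTTGAA was present in 31 of the 41 (75.6%), against 13.3% of 14452 genes on the array with a promoter and 18.1% of all 27025 promoters. In the stretch from 60 bases before to 30 bases after the start it was present in 25 members (61.0%), against 3.15% of the genes on the array. A CCAAT box was present in 30 members (73.2%), against 38.2%. Both elements were present in 26 members (63.4%), against 5.37%. The E2F element TTTNGCGC, searched for comparison, was present in 3 members (7.32%), against 2.03%. In a list of DNA replication genes the order was different, with TTTGAA in 4 of 30 promoters (13.3%) and TTTNGCGC in 8 (26.7%). A CCAAT box was present in 18 of these 30 promoters, and both CHR core and CCAAT box in 3. In a list of other G2/M genes, TTTGAA was present in 21 of 38 promoters (55.3%) and a CCAAT box in 26 (68.4%). Both were present in 15 of the 38 (39.5%), so these elements were not particular to the members. The CHR core stood without a CCAAT box in 5 members (Anln, Cep55, Kif15, Kif2c and Ndc80), and the CCAAT box without the core in 4. Neither was present in 6 members (Birc5, Mad2l1, Melk, Nuf2, Nusap1 and Pttg1). A match describes letters and is not a bound site. Only these exact letters were searched, so a missing match does not show that an element is absent.

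The measured members were all above the background range used here. The background range, 3.65 to 5.06 on the log2 scale, was taken from 3 Y-linked genes in 9 arrays in which Xist, expressed from an inactive X chromosome, was high. The lowest value of any member in any array was 5.83, for Ncapg. The medians of the arrays over all probe sets were 6.23 to 6.33, so passing this cut does not by itself show expression. The probe set of Wt1 lay inside the background range in all groups, at 4.45 ± 0.19 in double, 4.59 ± 0.07 in oncogene, 4.47 ± 0.16 in Wt1-null and 4.38 ± 0.10 in control arrays (SD, n = 7, 5, 5 and 5), so it gave no check of the deletion. All 12 fibroblast markers were above background in every array, with list means of 12.5 to 13.7. Of the markers of other cells, 5 of 7 epithelial, 5 of 7 macrophage and leukocyte, 2 of 7 endothelial, 6 of 7 skeletal muscle, 3 of 4 erythroid and 5 of 6 neural genes were also above background in every array. Among them were Epcam (8.40 over all arrays), Krt19 (8.79), Csf1r (7.30) and Kdr (7.17). The highest means of markers of other cells were those of Acta1 (11.055, skeletal muscle), Stmn2 (10.73, neural) and Nes (9.40, neural). Cdh1, Esrp1, Ptprc, Pecam1, Emcn and Hba-a1 were at background in every array. The epithelial list had means of 6.10 to 7.15 in double, 5.97 to 6.91 in oncogene, 6.13 to 6.53 in Wt1-null and 6.11 to 6.62 in control arrays. The part of other cell types in the results was not tested.

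Several arrays stood apart. Wt1-null replicate 2 and double replicate 2, which carry different labels, were the closest pair of all, with an SD of 0.152 between their values over all probe sets and a correlation of 0.998. Over the members their mean difference was 0.02, and the largest was 0.68. Wt1-null replicates 3 and 4 were nearly as close (SD 0.162), and the next closest pair of 1 group, control replicates 3 and 4, had an SD of 0.242. Double replicate 4 and oncogene replicate 4 had the lowest mean correlations with the other arrays. The closest array to double replicates 3, 4 and 6 was the oncogene array of the same number, and within these pairs the member mean of the double array differed by 0.05, -0.53 and -0.29. Xist was high in 5 of 7 double, 0 of 5 oncogene, 2 of 5 Wt1-null and 2 of 5 control arrays. The sample numbers fell into 3 sets, and no set held both double and Wt1-null arrays, so set and group cannot be told apart there. Counts and medians without these arrays are given with each comparison where they moved.

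The mean of the 49 members was lowest in the double arrays. Double replicates 1 to 7 had means of 9.91, 9.09, 9.91, 9.12, 8.51, 10.34 and 9.12 on the log2 scale. The oncogene arrays, replicates 1, 3, 4, 5 and 6, had 10.34, 9.86, 9.66, 10.85 and 10.63. Wt1-null replicates 1 to 5 had 9.72, 9.07, 10.64, 10.66 and 10.94. Control replicates 1 to 5 had 10.47, 9.81, 10.05, 10.17 and 10.30. The double arrays overlapped each other group: replicates 2, 4, 5 and 7 lay below every oncogene and control array, and replicate 6 lay above all control arrays but 1. The group means were 9.43 ± 0.64 in double (SD, n = 7), 10.27 ± 0.50 in oncogene (n = 5), 10.21 ± 0.79 in Wt1-null (n = 5) and 10.16 ± 0.25 in control arrays (n = 5). Without replicate 2 the Wt1-null mean was 10.49 ± 0.53 (n = 4). Being a score over chosen genes, the mean was not tested.

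**Figure D1:**
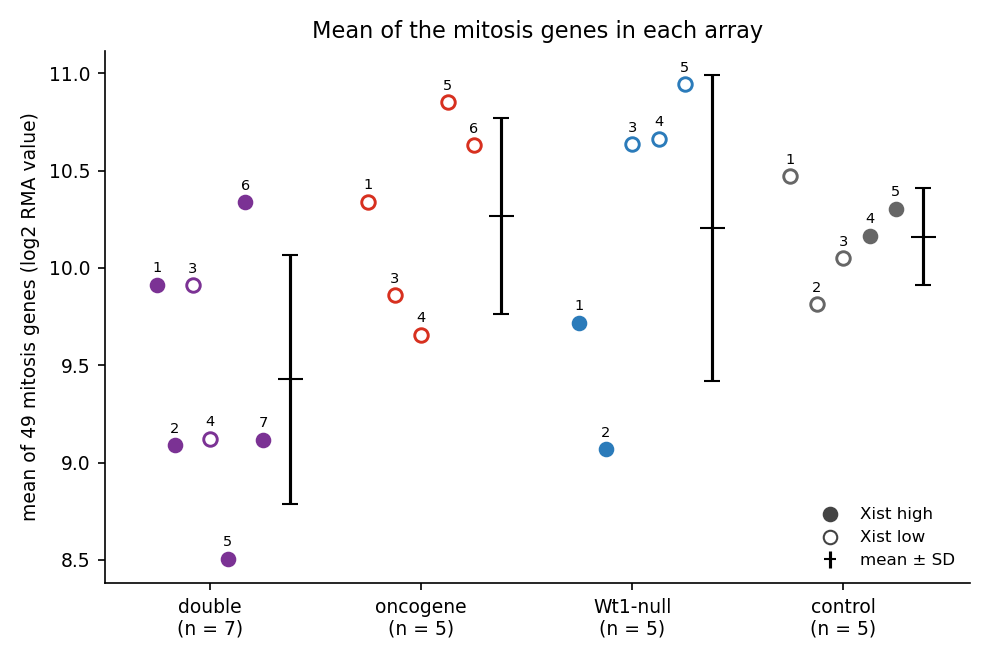
Mean log2 RMA value of the 49 mitosis genes (vertical axis) in each array, by group, with replicate numbers above the points; filled points had high Xist and bars show the mean ± SD. The double arrays run from 8.51 to 10.34, and Wt1-null replicate 2, at 9.07, lies at the level of double replicate 2.

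Replicates were spread widely in the double and Wt1-null groups. The median SD of a member was 0.83 in double, 0.53 in oncogene, 0.84 in Wt1-null and 0.27 in control arrays. The SD was larger in double than in control arrays for 48 of 49 members. This was not counted over all genes, so it is not shown to be particular to the members. Of the 49 members, the number above their own control mean was 11, 0, 8, 9, 0, 33 and 1 in double replicates 1 to 7. It was 36, 9, 14, 45 and 44 in the oncogene arrays, and 0, 0, 46, 45 and 47 in the Wt1-null arrays. In control replicates 1 to 5 it was 45, 1, 7, 27 and 42. Many single arrays thus lay almost wholly on one side, control arrays included. Oncogene replicates 5 and 6, Wt1-null replicates 3 to 5 and control replicates 1 and 5 were high. Double replicates 2, 5 and 7, Wt1-null replicates 1 and 2 and control replicates 2 and 3 were low. Wt1-null replicates 1 and 2 had high Xist and sample numbers of the first set. Wt1-null replicates 3 to 5 had low Xist and numbers of the second set, so these splits cannot be told apart.

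**Figure D2:**
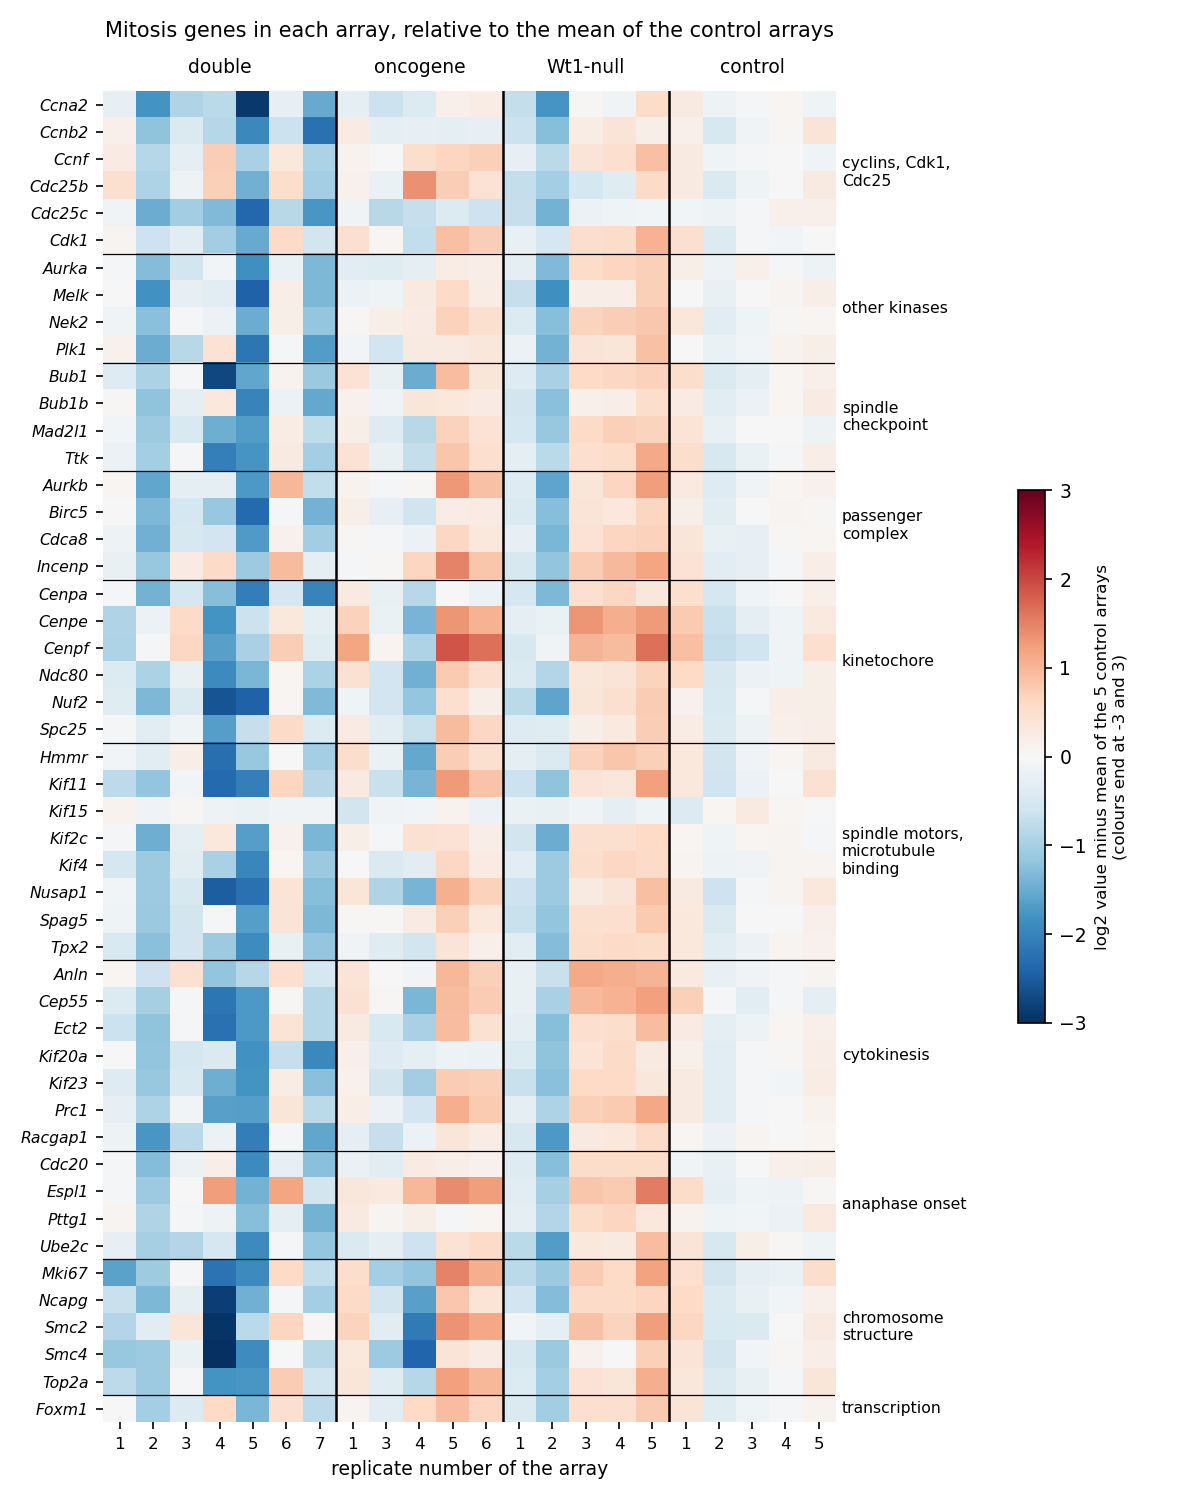
Log2 value of each measured mitosis gene (rows, ordered by role) in each array (columns, by group and replicate number), minus its mean over the 5 control arrays; blue is lower and red higher. Most columns have a single colour from top to bottom, Kif15 stays pale throughout, and double replicate 4 and oncogene replicate 4 mix dark blue with red.

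The members varied together from array to array. The median correlation between pairs of members over the 22 arrays was 0.796, and it was 0.769 for deviations from the group means. Each member was also set against the mean of the others. Kif4, a chromosome-bound kinesin, followed it most closely (0.974), and 37 of 49 members had a correlation over 0.8. The probe set of Kif15, a spindle kinesin that backs up Kif11, did not follow it (0.008), Cdc25b followed loosely (0.53), and Smc2 reached 0.681. These values share the arrays and their normalization and are descriptions only. Without oncogene replicate 4 and double replicate 4 the median pair correlation was 0.887. Cdc25b then followed the others at 0.827, and the lowest were Kif15 (-0.009), Cenpf (0.771) and Cenpe (0.773).

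Those 2 arrays split the members. In double replicate 4, 18 members were the lowest of all double arrays and 8 the highest. Deviations from the mean of the other double arrays ran from -2.79 for Smc2 to 1.57 for Espl1. In oncogene replicate 4, 27 members were the lowest of the group and 4 the highest. Deviations from the mean of the other oncogene arrays ran from -2.83 for Smc2 to 1.09 for Cdc25b. The condensin subunits Smc2 and Smc4 had the lowest deviations in both arrays. Across the 49 members the deviations in the 2 arrays correlated at 0.939. Other probe sets of the same genes differed: the 5 probe sets of Smc2 deviated by -2.79 to -0.19 in double replicate 4 and by -2.83 to -1.11 in oncogene replicate 4.

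Against the control, 1 member passed the test in the double arrays. Of the 49 measured members all had lower means in double arrays, with a median log2 difference of -0.76, and 54.6% of all 18193 genes were lower, with a median of -0.02. The test called 1 of 49 members (2.45% of all genes were called lower, and 5.93% in either direction), a share close to that of all genes. At an unadjusted p below 0.05 there were 22 members, against 20.1% of all genes. The called member was Cdc25c, a phosphatase that activates Cdk1 at mitotic entry. Ccna2, which encodes cyclin A2, was the only member whose double and control arrays did not overlap, and 1.79% of all genes were lower in the same way.

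Among the cyclins, Cdk1 and its phosphatases, Cdc25c was 6.50, 7.54 and 8.75 (lowest, median, highest) in double arrays and 8.75, 8.03, 8.17, 8.46 and 8.24 in oncogene arrays. It was 8.16, 7.45, 8.69, 8.73 and 8.79 in Wt1-null arrays and 8.79, 8.71, 8.80, 9.01 and 9.004 in control arrays. All double arrays but replicate 1 lay below every control array. Cdc25c fell in double against control arrays by 1.27 ± 0.29 (log2, SE; limma adjusted p = 0.0117). It stayed called in all 37 alternatives, with adjusted p from 2.57e-05 to 0.0352, and its other probe set differed by -1.20. In the single-change groups its differences from control were -0.53 ± 0.31 in oncogene and -0.50 ± 0.31 in Wt1-null arrays, which did not pass. The difference between double and oncogene arrays was -0.74 ± 0.29 (adjusted p = 0.9997), and the interaction was -0.24 ± 0.42, and neither passed.

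Ccna2 was 8.68, 10.68 and 11.34 (lowest, median, highest) in double arrays and 11.28, 10.95, 11.17, 11.72 and 11.80 in oncogene arrays. It was 10.87, 9.80, 11.61, 11.47 and 12.14 in Wt1-null arrays, against 11.85, 11.43, 11.54, 11.65 and 11.44 in control arrays. Every double array lay below every control array, and the difference of -1.20 ± 0.40 had an adjusted p of 0.0778. Cdk1, the kinase itself, was 10.02, 10.96 and 12.10 in double and 11.99, 11.58, 10.79, 12.43 and 12.25 in oncogene arrays. It was 11.31, 10.98, 12.05, 12.07 and 12.57 in Wt1-null arrays, against 12.02, 11.12, 11.48, 11.45 and 11.54 in control arrays. For Cdk1, 4 of 7 double arrays lay below every control array, and the difference was -0.49 ± 0.34. Ccnb2, another mitotic B cyclin, differed by -1.02, Cdc25b by -0.26 and Ccnf by -0.25, and none of the 3 passed.

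The other mitotic kinases had lower means in double than in control arrays, and none passed. Plk1, the Polo kinase, was 8.20, 9.53 and 10.80 in double arrays and 10.28, 9.79, 10.63, 10.63 and 10.71 in oncogene arrays. It was 10.20, 8.95, 10.76, 10.72 and 11.23 in Wt1-null arrays, against 10.37, 10.17, 10.29, 10.46 and 10.53 in control arrays. The highest double value was that of replicate 4, and 4 of 7 double arrays lay below all control arrays. The 4 kinases Plk1, Aurka, Nek2 and Melk had differences of -0.85 to -0.58 from control, with a smallest adjusted p of 0.20.

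In the spindle assembly checkpoint, Bub1b was 8.17, 9.89 and 10.50 in double arrays and 10.31, 10.06, 10.55, 10.50 and 10.42 in oncogene arrays. It was 9.63, 8.93, 10.33, 10.38 and 10.70 in Wt1-null arrays, against 10.42, 9.83, 9.99, 10.23 and 10.41 in control arrays. Bub1b delays anaphase by binding Cdc20, and 5 of 7 double arrays lay below all oncogene arrays, while 3 lay below all control arrays. Bub1, Bub1b, Mad2l1 and Ttk differed from control by -0.95 to -0.70 and did not pass. Cdc20, which activates the anaphase-promoting complex, was 10.52, 12.18 and 12.64 in double arrays and 12.24, 12.12, 12.68, 12.63 and 12.57 in oncogene arrays. It was 12.05, 11.15, 12.99, 12.98 and 12.99 in Wt1-null arrays, against 12.33, 12.21, 12.43, 12.57 and 12.62 in control arrays. Double replicates 2, 5 and 7 were more than 1 log2 unit below the lowest control array.

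The other genes of anaphase onset are Ube2c, Pttg1 and Espl1, for a ubiquitin-conjugating enzyme, for securin and for separase. Their differences from control were -0.82, -0.57 and -0.10, and none passed. Espl1 had both the lowest and the highest double values outside the control range, with 3 double arrays below all control arrays and 2 above them.

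The chromosomal passenger complex corrects wrong attachments. Its kinase Aurkb was 7.52, 8.94 and 10.23 in double arrays and 9.36, 9.17, 9.27, 10.53 and 10.13 in oncogene arrays. It was 8.85, 7.65, 9.60, 9.89 and 10.49 in Wt1-null arrays, against 9.54, 8.85, 9.14, 9.30 and 9.37 in control arrays. Birc5, or survivin, which brings the complex to centromeres, was 8.88, 10.08 and 11.21 in double arrays and 11.39, 10.97, 10.62, 11.44 and 11.47 in oncogene arrays. It was 10.79, 9.95, 11.59, 11.54 and 11.86 in Wt1-null arrays, against 11.40, 10.88, 11.22, 11.31 and 11.26 in control arrays. For Birc5, 5 of 7 double arrays lay below all control arrays, against 3 of 7 for Aurkb. The differences from control were -0.97 ± 0.35 for Birc5, -0.51 ± 0.45 for Aurkb, -0.75 for Cdca8 and -0.14 ± 0.41 for Incenp, the scaffold, and none passed.

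The 6 kinetochore genes had differences from control between -1.20 and -0.37. Nuf2, a subunit of the Ndc80 complex that grips microtubules, had the largest, -1.20 ± 0.46 (adjusted p = 0.13). Cenpa, the centromeric histone, followed at -1.12 ± 0.36 (adjusted p = 0.0732). The spindle group held Tpx2, which activates Aurora A, at -0.95 ± 0.31 (adjusted p = 0.071), and Nusap1 and Kif11 at -1.03 and -0.95. Tpx2 was 9.06, 9.86 and 10.72 in double arrays and 10.85, 10.57, 10.40, 11.34 and 11.11 in oncogene arrays. It was 10.64, 9.65, 11.48, 11.53 and 11.49 in Wt1-null arrays, against 11.27, 10.61, 10.77, 11.03 and 11.07 in control arrays. All double arrays but replicate 6 lay below every control array. The 7 cytokinesis genes, among them the spindle midzone proteins Prc1, Kif20a and Kif23, differed by -0.94 to -0.30, and none passed.

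Kif15 was the flat member. It was 6.65, 6.74 and 6.94 in double arrays and 6.31, 6.73, 6.76, 6.95 and 6.68 in oncogene arrays. It was 6.64, 6.62, 6.73, 6.55 and 6.72 in Wt1-null arrays, against 6.45, 6.92, 7.12, 6.90 and 6.85 in control arrays. The groups overlapped, and its difference from control was -0.08 ± 0.11. It had no second probe set of its own to compare with. Its values of 6.31 to 7.12 lay close to the array medians over all probe sets, 6.23 to 6.33. Whether its probe set carried signal was not tested.

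Among the genes of chromosome structure, Top2a, the topoisomerase that untangles sister chromatids, was 9.53, 10.54 and 12.08 in double arrays and 11.68, 10.95, 10.47, 12.54 and 12.31 in oncogene arrays. It was 10.90, 10.29, 11.76, 11.70 and 12.42 in Wt1-null arrays, against 11.67, 10.88, 11.10, 11.26 and 11.69 in control arrays. Mki67, whose protein coats mitotic chromosomes and is used as a proliferation marker, was 8.79, 9.95 and 11.60 in double arrays and 11.54, 9.99, 9.84, 12.49 and 12.10 in oncogene arrays. It was 10.20, 9.89, 11.78, 11.62 and 12.22 in Wt1-null arrays, against 11.52, 10.45, 10.74, 10.81 and 11.54 in control arrays. For both genes 5 of 7 double arrays lay below all control arrays and replicate 6 lay above all of them. The differences from control were -0.76 ± 0.44 for Top2a, -0.997 ± 0.54 for Mki67, -1.19 for Smc4, -1.09 for Ncapg and -0.56 for Smc2, and none passed.

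Foxm1, the transcription factor of the wave, was 7.72, 8.66 and 9.68 in double arrays and 9.16, 8.74, 9.67, 9.99 and 9.72 in oncogene arrays. It was 8.65, 8.03, 9.59, 9.57 and 9.87 in Wt1-null arrays, against 9.47, 8.73, 8.96, 9.05 and 9.19 in control arrays. Its difference from control, -0.36 ± 0.35, was smaller than the spread between double arrays.

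**Figure D3:**
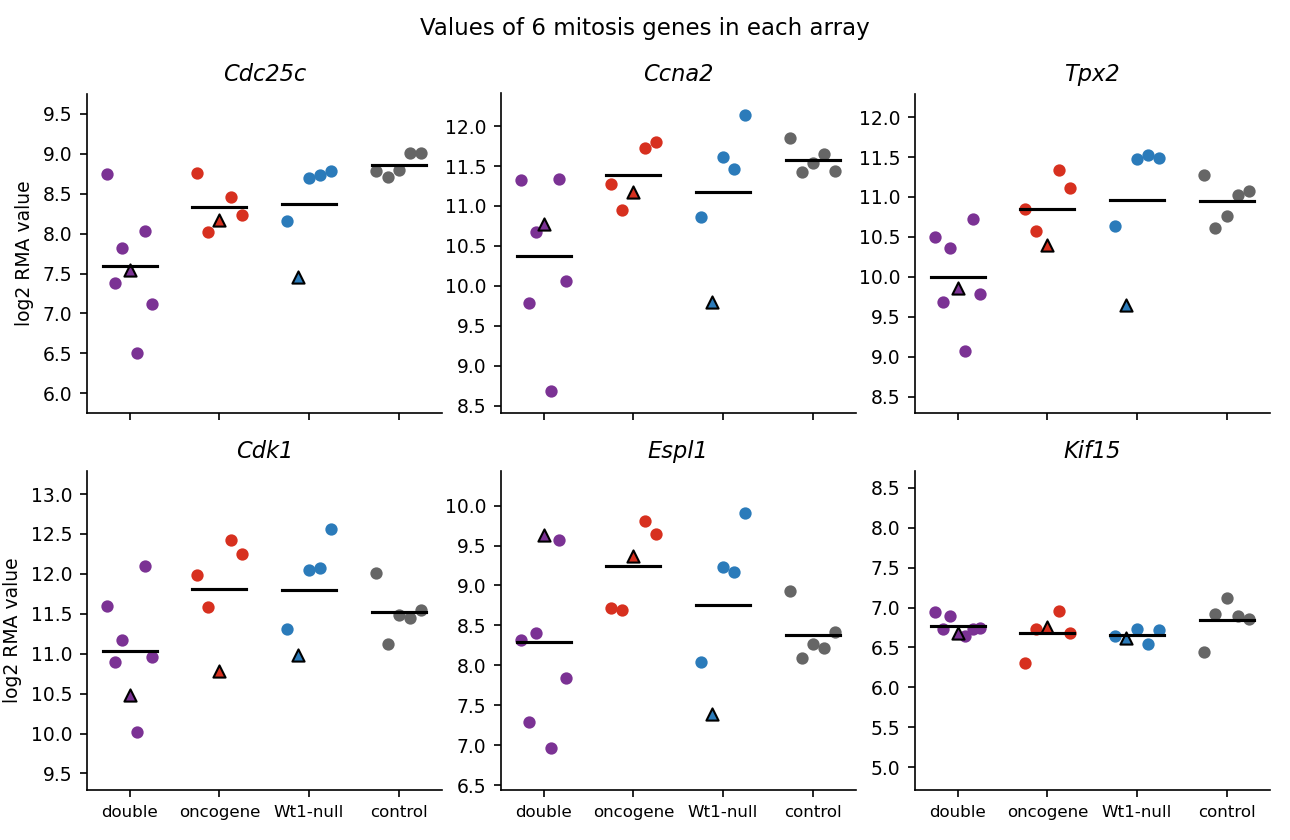
Log2 RMA values of 6 mitosis genes in each array (points, replicates from left to right) by group, with the group mean as a line; all panels span 4 log2 units, and triangles mark double replicate 4, oncogene replicate 4 and Wt1-null replicate 2. Cdc25c and Ccna2 lie below the control arrays in 6 and 7 of 7 double arrays, and Kif15 is level.

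The count of called members in double against control arrays depended on single arrays. Without double replicate 1 it was 7 (Cdc25c, Ccnb2, Cenpa, Kif20a, Ccna2, Tpx2 and Birc5), without Wt1-null replicate 2 it was 5 and without double replicate 6 it was 3, each time all lower. In those fits 9.5%, 7.07% and 5.73% of all genes were called. Wt1-null replicate 2 is in neither group, so leaving it out changed only the shared estimate of spread. Cdc25c stayed at -1.27, with an SE of 0.26 in place of 0.29. Without both arrays of the close pair the count was 2 of 49, beside 5.96% of all genes. With oncogene 4 and double 4 left out it was 1, beside 10.1%. With array weights it was 22, all lower, and 33.2% of all genes were then called. With Xist state as a covariate the median difference was -0.62 and Cdc25c alone was called, and within the third set of sample numbers the median was -0.70, again with Cdc25c alone. The share of all genes called in the main fit was 5.93%.

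Double and oncogene arrays both received Cre and carried the activated oncogene. Here 48 of 49 members had lower means in double arrays, with a median difference of -0.86, and 46.8% of all genes were lower, with a median of 0.01. The test called 0 of 49 members, and 0% of all genes were called, while 36 members had an unadjusted p below 0.05, against 3.09% of all genes. The arrays of the 2 groups overlapped for every member, while 0.055% of all genes were lower without overlap. The largest differences were -1.18 ± 0.54 for Mki67, -1.15 ± 0.51 for Cenpf, a kinetochore protein, and -1.05 ± 0.45 for Cep55, which recruits the machinery of abscission. The smallest p-values were those of Kif4 (-0.87 ± 0.31) and Tpx2 (-0.86 ± 0.31). Kif15 (0.08 ± 0.11), Spc25 (-0.55) and Ccnf (-0.65) differed least.

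Xist state moved with this comparison, being high in 5 of 7 double and 0 of 5 oncogene arrays. With Xist state as a covariate the median difference was -0.54, and 0 members had an unadjusted p below 0.05. The 2 double arrays with low Xist, replicates 3 and 4, had member means of 9.91 and 9.12. Without oncogene replicate 4 and double replicate 4 the median was -0.96 and 44 members had an unadjusted p below 0.05, and without both arrays of the close pair the median was -0.78 and 29 did. The share of all genes at that cut was not counted in these fits or in that with Xist state. Within the third set of sample numbers, which holds 7 double and 4 oncogene arrays, the median difference was -0.87, 49 members were lower and 0 were called.

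Double and Wt1-null arrays differ by the oncogene. Of 49 members 47 had lower means in double arrays, with a median difference of -0.82, and 42% of all genes were lower. The test called 0 of 49 members, and 0.0824% of all genes, while 25 members had an unadjusted p below 0.05, against 14.8% of all genes. Cep55 (-1.28 ± 0.45, adjusted p = 0.19), Mki67 (-1.13 ± 0.54) and Ncapg, a condensin subunit (-1.07 ± 0.47), differed most. Tpx2 had the smallest adjusted p, 0.158, at -0.96 ± 0.31, followed by Kif4 at -0.91 ± 0.31 (adjusted p = 0.18). Kif15 (0.12 ± 0.11), Cdc25b (0.15 ± 0.36) and Incenp (-0.39 ± 0.41) differed least.

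This comparison turned on Wt1-null replicate 2, the array nearly identical with double replicate 2. That array had the lowest member mean of its group (9.07), so leaving it out by itself moves most of these differences down. The labels do not show which array of the close pair, if either, should be left out. Without Wt1-null replicate 2 the median difference was -1.13 and 48 members were lower. The test then called 11 of 49 members, all lower, and 5.08% of all genes. They were Tpx2, Kif4, Cdca8, Kif20a, Aurka, Cenpa, Cep55, Cdc25c, Birc5, Prc1 and Pttg1. Tpx2 differed by -1.29 ± 0.26 (adjusted p = 0.00749) and Pttg1 by -0.88 ± 0.25 (adjusted p = 0.0464). Without both arrays of the close pair, 4 members were called (Tpx2, Kif4, Cdca8 and Kif20a), beside 3.69% of all genes, with a median difference of -1.06. With the near-identical Wt1-null replicates 3 and 4 averaged into 1 array the median was -0.70 and no member passed, with 8 at an unadjusted p below 0.05. The share of all genes at that cut was not counted in this fit. With the set of sample numbers as a fixed block the median was -0.44 and 0 were called, in a fit that joins the groups only through control and oncogene arrays. With array weights 41 members were called lower, beside 19.2% of all genes.

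**Figure D4:**
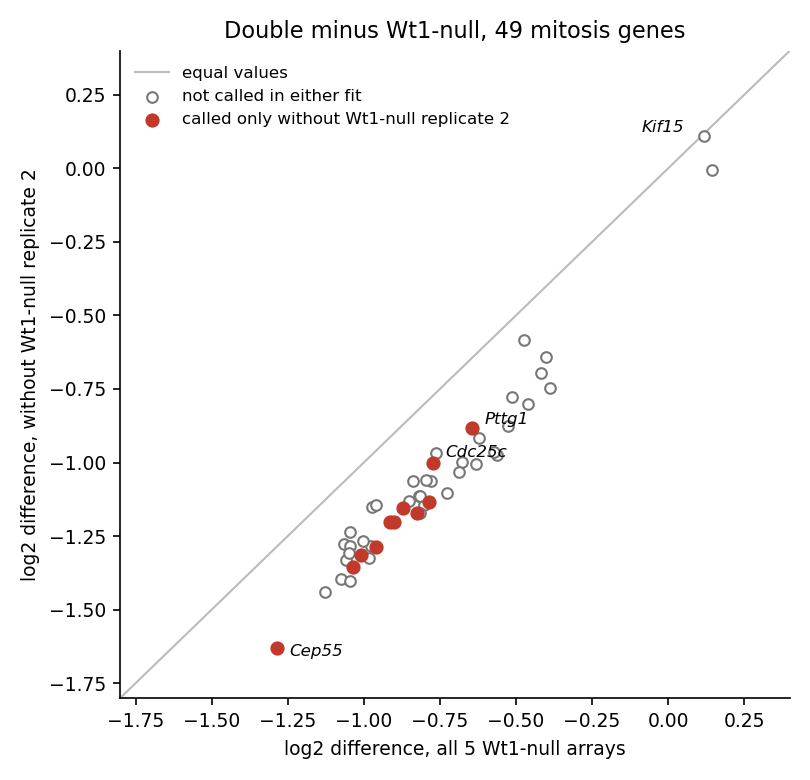
Log2 difference between double and Wt1-null arrays for each of the 49 mitosis genes, with all 5 Wt1-null arrays (horizontal axis) and without Wt1-null replicate 2 (vertical axis); red points are the 11 genes called only without that array. Nearly all points lie below the line of equal values, with medians of -0.82 and -1.13. The array left out had the lowest member mean of its group, which by itself moves points down.

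The activated oncogene alone left the members spread on both sides of the control. In oncogene arrays 33 members had higher and 16 lower means than in control arrays, with a median difference of 0.07 beside -0.03 for all genes, of which 43.8% were higher. The test called 0 of 49 members, against 2.04% of all genes, and 0 members had an unadjusted p below 0.05, against 15% of all genes. The largest differences were 0.86 ± 0.49 for Espl1 (adjusted p = 0.43), 0.78 ± 0.55 for Cenpf and 0.59 ± 0.44 for Incenp, and Cdc25c had -0.53 ± 0.31 (adjusted p = 0.44). Bub1, Hmmr and Kif23 differed by 0.01 or less. Without oncogene replicate 4 and double replicate 4 the median was 0.28. It ran from -0.20 to 0.40 over the alternatives, so its sign was not stable. With array weights 3 members (Cenpf, Espl1 and Cenpe) were called higher, beside 24.3% of all genes.

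With loss of Wt1 alone the median was also near 0, but the arrays were split. In Wt1-null arrays 30 members had higher and 19 lower means than in control arrays, with a median difference of 0.03 beside -0.05 for all genes, of which 40.3% were higher. These means join replicates 1 and 2, with 0 of 49 members above their control mean, and replicates 3 to 5, with 46, 45 and 47. The split runs along Xist state and set of sample numbers, so the median does not describe a typical array. The test called 0 of 49 members, against 0.104% of all genes, and 0 members had an unadjusted p below 0.05, against 12.7% of all genes. The largest differences were 0.65 ± 0.50 for Cenpe, a kinetochore motor, 0.60 ± 0.55 for Cenpf and -0.50 ± 0.31 for Cdc25c. Kif15 differed by -0.20 ± 0.12 (adjusted p = 0.48), and Cdc20, Plk1 and Tpx2 by 0.01 or less. The sign of the median was not stable here either. Without Wt1-null replicate 2, the array of the group with the lowest member mean, it was 0.34, 45 members were higher and 0 were called. With replicates 3 and 4 averaged it was -0.072 and 35 members were lower, and with the set of sample numbers as a fixed block it was -0.12, again with 35 lower. With array weights 7 members were called, 6 of them higher, beside 33.1% of all genes.

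**Figure D5:**
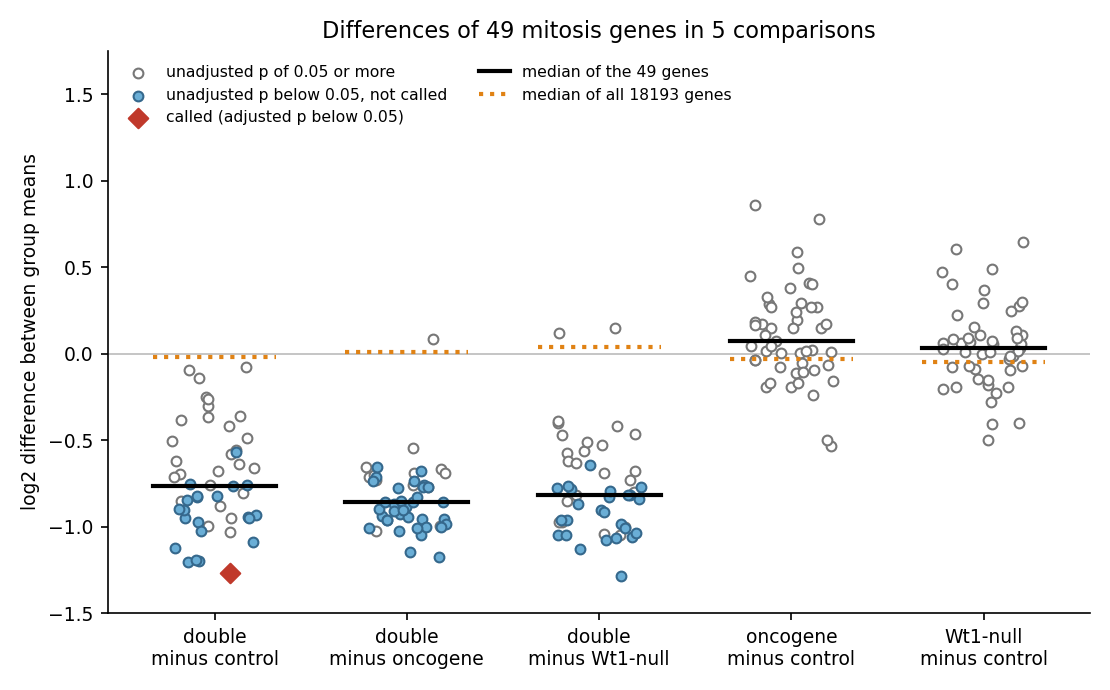
Log2 difference between group means (vertical axis) for the 49 mitosis genes in 5 comparisons; the black line is the median of the members and the dotted line that of all 18193 genes. The members lie mostly between -0.3 and -1.3 in the 3 comparisons of the double arrays and around 0 in the other 2, and Cdc25c against control is the 1 called value.

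The interaction sets double minus Wt1-null against oncogene minus control, the oncogene difference without and with Wt1. Only the control received the GFP virus, so the second difference, and with it the interaction, also holds the difference between viruses. Of 49 members 48 had negative values, with a median of -0.87 beside 0.06 for all genes, of which 40.3% were lower. The test called 0 of 49 members, against 0.011% of all genes, and 6 members had an unadjusted p below 0.05, against 8.55% of all genes. The largest values were -1.75 ± 0.74 for Cenpf, -1.45 ± 0.66 for Cep55 and -1.36 ± 0.68 for Cenpe, each with an adjusted p of 0.58. Anln, a cleavage furrow scaffold, had the smallest p, at -1.19 ± 0.49 (adjusted p = 0.58). The values nearest 0 were those of Cdc25c (-0.24), Kif15 (0.28) and Cdc25b (-0.35). With Xist state as a covariate the median was -0.55, and 0 were called. The members with an unadjusted p below 0.05 were 28 without Wt1-null replicate 2, 12 without oncogene 4 and double 4, and 1 with Wt1-null 3 and 4 averaged, with medians of -1.17, -0.99 and -0.76. The share of all genes at that cut was not counted in these fits. With array weights the median was -1.51, and 41 members were called, beside 15.1% of all genes. A test of any difference among the 4 groups called 0 members, against 3.02% of all genes, and 12 had an unadjusted p below 0.05, against 17% of all genes. Cdc25c was nearest at an adjusted p of 0.0595. Without Wt1-null replicate 2 that test called 6 members, beside 6.26% of all genes, and with array weights 46, beside 46.4% of all genes.

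Members were also set apart by their promoter elements, as a description with no test. In double against control arrays the 26 members with both CHR core and CCAAT box had a median of -0.76, as did the other 15 members with a promoter. Against oncogene arrays the medians were -0.89 and -0.86, against Wt1-null arrays -0.82 and -0.81, and in the interaction -0.93 and -0.83. Other probe sets of the members pointed mostly the same way: of 62, from 33 genes, 57 were lower in double than in control arrays, with a median of -0.42, and 7 of the 62 were at background.

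Genes around the mitotic wave were counted from further lists, beside the 5.93% of all genes called in double against control arrays. Of 48 other G2/M genes, 42 had lower means in double than in control arrays, with a median of -0.49. The test called H2az1, a histone variant (-1.13 ± 0.26, adjusted p = 0.0136), and Knl1, a kinetochore scaffold (-1.11 ± 0.32, adjusted p = 0.0421), as lower. It called Gtse1, a microtubule and p53 regulator, as higher (0.47 ± 0.13, adjusted p = 0.0359). These 3 of 48 were a share close to that of all genes. Of 37 DNA replication genes, 34 were lower with a median of -0.41. Tyms, thymidylate synthase (-0.50 ± 0.14, adjusted p = 0.0408), and Gins4, a subunit of the replicative helicase (-0.41 ± 0.12, adjusted p = 0.0461), were called, again a share close to that of all genes. The mean of the replication list was 9.57 ± 0.54 in double, 10.11 ± 0.36 in oncogene, 9.92 ± 0.64 in Wt1-null and 9.94 ± 0.16 in control arrays. In double against oncogene arrays all 37 had lower means and 0 were called.

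The 15 subunits of the anaphase-promoting complex had a median of -0.30 in double against control arrays, and Anapc15 was the 1 called (-0.76 ± 0.16, adjusted p = 0.00669), also close to the share of all genes. Among 13 DREAM and MYB-MuvB regulators, 12 cohesin genes, 10 genes of Cdk1 inhibition and mitotic exit and 3 NF-Y subunits, 0 were called in any comparison. Their medians against control were -0.20, -0.18, -0.03 and -0.10, and the smallest adjusted p was 0.09, for Rbl2 at 0.61 ± 0.21.

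Among 7 CDK inhibitors 2 passed in double against control arrays, in opposite directions. Cdkn1b, which encodes p27, fell by 1.13 ± 0.27 (log2, adjusted p = 0.0164), and Cdkn1c, which encodes p57, rose by 0.99 ± 0.28 (adjusted p = 0.036). Cdkn2a, the locus of p16 and p19Arf, was 9.05 ± 0.81 in double, 8.34 ± 1.01 in oncogene, 8.05 ± 1.16 in Wt1-null and 7.63 ± 0.13 in control arrays (SD, n = 7, 5, 5 and 5). Its difference in double against control arrays was 1.42 ± 0.48 (adjusted p = 0.0833) and did not pass. No CDK inhibitor was called in another comparison.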

How the data were processed

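Expression was measured on 22 arrays of mouse embryonic fibroblasts in 4 groups, taken from the sample titles. Values are on the log2 scale as the authors deposited them, made by RMA in Affymetrix Expression Console (submitters' processing notes). RMA sets all arrays to a common distribution, so a change shared by most transcripts would not show. Of 45101 probe sets, 64 were controls, 34945 were annotated to 1 gene, 932 to several and 9160 to none. A single probe set stood for each of 18193 genes. The activated oncogene's name is not reported here.

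Group means were fitted to the log2 values with limma 3.58.1 in R 4.3.3 (lmFit, eBayes, all arrays), with Benjamini-Hochberg adjustment over all genes, and an adjusted p below 0.05 counted as a call. The fit was tested on simulated data. Values were named by role, by largest and smallest difference and by smallest p. The members and lists were chosen with earlier results of these data known. Alternatives changed the probe sets, normalization, variance model, blocks and arrays used; each probe set on its own was added after seeing the data. The number of arrays limits the precision. Replicate numbers were not taken to pair the samples, since not every same-numbered pair deviated together.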

Additional observations from a re-analysis of the deposited data

How the results depend on the processing

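Array weights moved the counts most. They called 3 members for the oncogene and 7 for Wt1 loss against control, 22 in double against control, 41 in double against Wt1-null, 41 in the interaction and 46 in any of the 4 groups, with an interaction median of -1.51, while between 15.1% and 46.4% of all genes were called in those comparisons. Double against oncogene stayed at 0 members there. Without both Wt1-null replicate 2 and double replicate 2 the counts were 2 in double against control, 4 in double against Wt1-null and 2 in any of the 4 groups. With dim genes left out any of the 4 groups gave 1. Leaving out 1 array at a time gave 1 to 7 members in double against control, 0 to 11 in double against Wt1-null, 0 to 6 in any of the 4 groups and 0 in the other comparisons. In the main fit 5.93% of all genes were called in double against control, 0.0824% in double against Wt1-null and 3.02% in any of the 4 groups. These shares also moved from fit to fit, so the counts do not by themselves describe the members. Averaging every probe set per gene put the member means at 8.39 in double, 9.08 in oncogene, 9.06 in Wt1-null and 9.01 in control arrays, since dimmer probe sets then enter. The medians of the 3 comparisons of double arrays were negative in all alternatives run, from -0.93 to -0.59 against control, -1.10 to -0.54 against oncogene and -1.16 to -0.44 against Wt1-null.

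Among the differences of named genes, signs turned only where the value had not been called. In oncogene against control these were Bub1 (-0.27 with the replicate block, -0.044 with Xist), Hmmr (-0.20 with the block, -0.024 with Xist, -0.053 with all probe sets, -0.010 with quantile normalization repeated, -0.043 within the third set) and Kif23 (-0.34, -0.16, -0.052 and -0.0018 under the first 4 of these). For loss of Wt1 they were Cdc20 (-0.14 with replicates 3 and 4 averaged, -0.11 with all probe sets), Plk1 (-0.084 averaged, -0.016 with quantile repeated), Tpx2 (-0.13 averaged, -0.013 quantile, -0.15 and -0.039 with the set as a fixed and random block), Cenpf (-0.053) and Kif15 (0.19) with the fixed block. In double against control, Espl1 was 0.072 without the close pair, 0.20 with Xist, 0.069 with the fixed block and 0.041 within the third set, and Incenp was 0.025 without the pair and 0.12 with Xist. Cdc25b in double against Wt1-null was -0.16 with array weights and -0.016 without oncogene 4 and double 4. Kif15 was -0.018 with the fixed block and -0.013 within the third set against oncogene, -0.37 and -0.029 against Wt1-null (fixed, random block) and -0.21 in the interaction (fixed block). The cause was not tested.

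Leaving out 1 array gave ranges of -0.22 to 0.38 for Bub1, -0.18 to 0.39 for Hmmr and -0.19 to 0.26 for Kif23 in the oncogene comparison with control. They were -0.14 to 0.32 for Cdc20, -0.21 to 0.36 for Plk1 and -0.13 to 0.34 for Tpx2 in the Wt1-null comparison. They were -0.32 to 0.13 for Espl1 and -0.32 to 0.025 for Incenp in double against control, -0.016 to 0.39 for Cdc25b in double against Wt1-null and -0.013 to 0.15 for Kif15 in double against oncogene.

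With the replicate number as a block, Cdc25c was still the 1 called member and 0 were called elsewhere; the medians were -0.87 for double against control, -0.63 against oncogene and -0.90 against Wt1-null. The 28 same-numbered pairs of arrays correlated at -0.47 to 0.77, with a median of 0.04, so the numbers were not taken to pair the samples. Between double and oncogene arrays, replicates 1, 3, 4, 5 and 6 correlated with their own number at 0.15, 0.18, 0.77, -0.14 and 0.62, so 1 pair went the other way, and not every array correlated best with its own number. There the block left 6 members with an unadjusted p below 0.05, against 36 without it. The share of all genes at that cut was 3.09% without the block and was not counted with it. An outlying array was searched for in 29 items, the genes named by the rules above and the mean of the members. In their 116 groups of values 0 arrays were flagged. The other members, Smc2 among them, were not searched.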
